A study of Mus musculus with 12 samples.

Results

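The tyrosine transfer RNA (tRNA) with the anticodon GTA was followed along its length in hematopoietic stem and progenitor cells, from which all blood lineages arise, of young and old mice. Its members were all rows of 5 entries of the deposited tables, tRNA-Tyr-GTA-1-1, 2-1, 3-1, 4-1 and 5-1, chosen by name. They are 5 of the 213 tRNAs that carry distinct values in the tables, and they hold 317 of 28302 rows. The tables hold 10 tRNA-Tyr-GTA entries, and the other 5 repeat the values of a listed entry (4 repeat 1-1 and 1 repeats 3-1).

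All 12 libraries came from wild-type cells and fall into 4 groups of 3: young with BEU, young with CMC, old with BEU and old with CMC. All of the RNA, control libraries included, was shorter than 200 nt and was first demethylated with wild-type AlkB and its D135S mutant. CMC is a carbodiimide that forms a lasting adduct on pseudouridine and halts reverse transcriptase there. BEU is the same buffer without CMC. The ages of the mice are not given in the labels, nor is it said whether the replicates are separate animals, so p-values measure only the spread between these libraries. The tables list tRNAs only, so the cell type could not be checked against marker genes. The series title names pseudouridine synthase 10 (PUS10) as induced by aging, and the libraries compare tRNA pseudouridylation between the ages.

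Pseudouridine is an isomer of uridine made by pseudouridine synthases in the finished RNA chain. In eukaryotic tRNA-Tyr the middle base of the anticodon, position 35, is a known pseudouridine made by PUS7 before the intron of the tRNA is removed. Position 39 in the anticodon stem is a known target of PUS3. In the T loop, position 55 is pseudouridine in most tRNAs and is made by TRUB1 or PUS10, while position 54 is most often a methylated uridine and is converted by PUS10 in some tRNAs. Position 46 often carries 7-methylguanosine, and position 27 of mammalian tRNA-Tyr is known to carry a dimethylated guanosine.

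The sequences are shown because the entries differ in so little that they hold many of the same reads. Each is printed 5′ to 3′ in DNA letters as the row labels of the tables give it, with capitals at positions 27, 35, 39, 55 and 59 and, where the entry reaches so far, at position 20.
tRNA-Tyr-GTA-1-1: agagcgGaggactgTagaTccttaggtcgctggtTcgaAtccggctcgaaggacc
tRNA-Tyr-GTA-2-1: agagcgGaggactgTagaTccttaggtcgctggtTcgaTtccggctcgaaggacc
tRNA-Tyr-GTA-3-1: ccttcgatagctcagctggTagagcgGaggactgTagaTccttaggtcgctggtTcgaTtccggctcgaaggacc
tRNA-Tyr-GTA-4-1: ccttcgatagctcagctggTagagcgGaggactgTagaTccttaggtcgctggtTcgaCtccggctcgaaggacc
tRNA-Tyr-GTA-5-1: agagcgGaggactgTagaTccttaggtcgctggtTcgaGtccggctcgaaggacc

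Entries 3-1 and 4-1 are held from position 1 to 75, and the other 3 from position 21 to 75. Positions are counted from 1 at the 5′ end of the tRNA and follow the usual tRNA numbering. Over the 55 positions that all 5 entries share, 2-1 and 3-1 have the same sequence. Against 2-1, with its base given first, the other entries differ by 1 substitution each, all at position 59 in the T loop: T59A in 1-1, T59C in 4-1 and T59G in 5-1. Entries 3-1 and 4-1 differ by T59C alone over 75 positions.

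The values of the entries therefore share reads, and the sharing changes along the molecule. Summed over the 12 libraries, positions 21 to 30 held between 6787 and 6802 stop reads in each of the 5 entries. At these 10 positions the entry with the fewest stop reads reached at least 98.5% of the entry with the most. Between positions 31 and 58 the entries parted, with 16768 stop reads in 1-1, 27190 in 2-1, 27187 in 3-1, 2098 in 4-1 and 542 in 5-1. At positions 59 to 61 they came close again, with 2876 to 3579 stop reads per entry. From position 62 to the 3′ end each entry held 168 stop reads, which is the deposited lowest value of 1 in each library at each of 14 positions. Entries 2-1 and 3-1 differed in 9 of 660 stop values from position 21 on and are nearly a single measurement held under 2 names. The counts of calls below are by entry and include both.

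**Figure D1:**
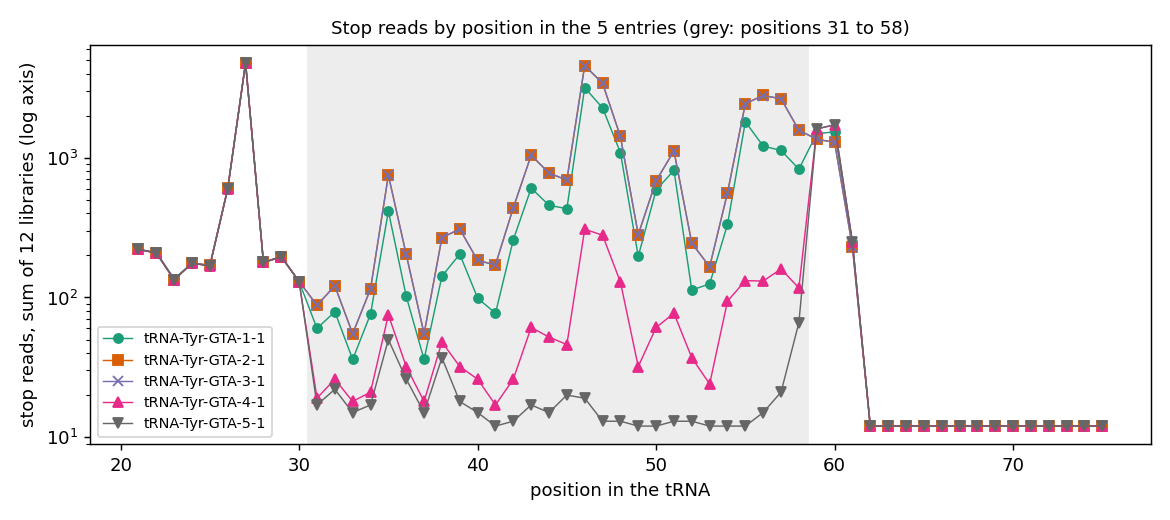
Stop reads summed over the 12 libraries (log axis) against position in the tRNA, 1 line per entry; the grey band marks positions 31 to 58. The 5 lines lie together up to position 30 and near each other from 59 on, and inside the band they spread. Summed over the positions of the band, 2-1 held 27190 stop reads and 5-1 held 542.

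Depth set what could be tested. The highest coverage of an entry ran from 935 reads (5-1) to 7992 reads (2-1 and 3-1) in BEU libraries and from 118 reads (5-1) to 4635 reads (2-1 and 3-1) in CMC libraries. Over all tRNAs, coverage never exceeded 8015 reads, and where an entry neared that limit few stop reads were recorded 3′ of it. In old BEU replicate 1 of 2-1, for example, 818 stop reads were recorded at position 47, where coverage reached the limit, and 25, 14 and 16 at positions 48, 54 and 55. In 1-1 this limit touched positions from 51 on, and in 2-1 and 3-1 positions from 47 on, always through the deepest libraries, while 4-1 and 5-1 never reached it. With at least 20 reads in all 12 libraries required, 232 of the 317 rows entered the tests: positions 27 to 75 in 1-1 to 4-1, and 36 positions in 5-1. The summed highest coverage over the 213 tRNAs ranged from 533736 to 1061426 reads in BEU libraries and from 201980 to 767650 in CMC libraries.

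CMC raised stops in at least 1 entry at 8 positions of tRNA-Tyr-GTA, and positions 35, 39 and 55 made up most of the calls by entry. The stop rate is the share, in percent, of reads over a base that stop at it, and the rise is the CMC rate minus the BEU rate of the same age and replicate number, in percentage points. A base was called when the mean rise was at least 10 points, the rise was positive in all 3 pairs and the adjusted p of the edgeR quasi-likelihood test was under 0.05. In young cells 15 of the 53 T sites tested in the 5 entries were called, where 18.8% of all 2189 T sites were. In old cells 13 of 53 were called, against 20.3% of all T sites. Among A, C and G, 3 of 179 sites were called in young cells (0.368% of 7870 overall) and 2 of 179 in old cells (0.61% overall). All of these calls except G46 of 4-1 in young cells were at position 59 of 4-1 and 5-1. These 2 entries held the same 1607 stop reads there, so those calls are not independent. Position 35 was called in 5 entries in young and 3 in old cells, position 39 in 3 entries and position 55 in 4 entries at both ages. The 37 T sites called in neither age had mean rises of 0.059 to 8.05 points. The sites tested include positions 62 to 75, which held 1 stop read in every library and so could not reach a rise of 10 points. The lowest value, 0.059, is from T66 among them.

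**Figure D2:**
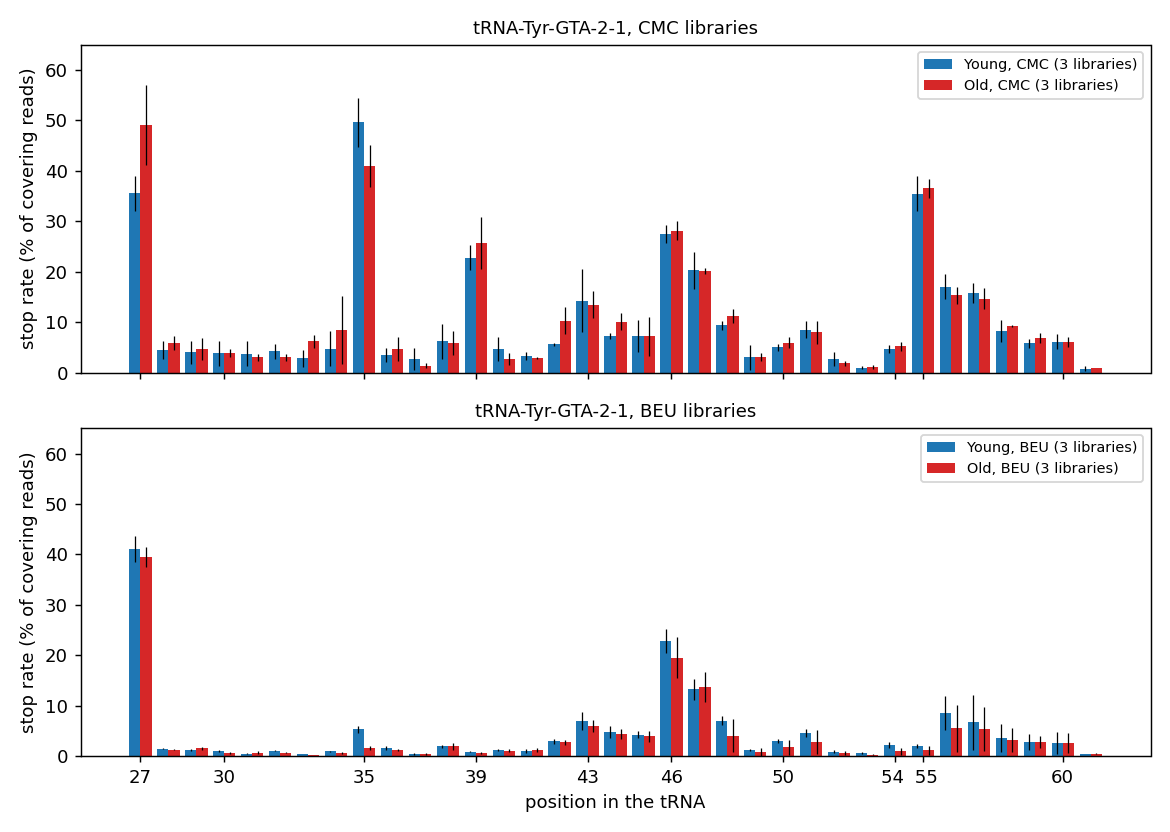
Mean stop rate (percent of covering reads) by position in tRNA-Tyr-GTA-2-1, positions 27 to 61, in CMC libraries (top) and BEU libraries (bottom); bars are means of 3 libraries and error bars are SDs. Positions 35, 39 and 55 stand out with CMC only, reaching 49.6% at position 35 in young cells, while positions 27, 46 and 47 are high in both panels.

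Position 35, the middle anticodon base, gave the highest mean rise of 2-1 and 3-1 at both ages. In 2-1, the young BEU libraries had stop rates of 4.61%, 5.89% and 5.42%, and the young CMC libraries 55.1%, 47.5% and 46.2%. The old BEU libraries had 1.13%, 2.05% and 1.69%, and the old CMC libraries 36.2%, 43.4% and 43.2%. Every CMC library lay far above every BEU library, and in both treatments every old library lay below every young one. The rise was 44.3 ± 5.4 points in young cells (SD, n = 3; adjusted p = 4.88e-07) and 39.3 ± 3.7 points in old cells (adjusted p = 9.41e-08). The CMC libraries had 39 to 366 reads over the base. Its neighbours were not called, as their mean rises were under the minimum for a call. These rises were 3.70 ± 3.57 (young) and 7.80 ± 6.59 points (old) at G34, and 1.82 ± 1.51 and 3.5 ± 2.5 points at A36. Over the 5 entries, the adjusted p of edgeR in young cells was 0.0072 to 0.134 at G34 and 0.079 to 0.161 at A36. In old cells it was 0.0042 to 0.0154 and 0.0071 to 0.0161, under the adjusted p threshold in every entry. At G34, 4-1 held 21 and 5-1 held 17 stop reads over the 12 libraries, and at A36 32 and 26. The lowest deposited value is 1 per library, so these entries lay near that floor. In old cells, 126 of 179 member A, C and G sites had an unadjusted edgeR p under 0.05 (2345 of 7870 overall). With 1 subtracted from coverage and stop reads it was 52 of 177 (1198 of 7787 overall).

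In 1-1 the rise at position 35 was 35.8 ± 8.4 points in young cells (adjusted p = 1.04e-06) and 31.7 ± 6.3 points in old cells (adjusted p = 1.5e-07). The young CMC libraries of 1-1 had 38.6%, 30.1% and 47.5%, and the old ones 31.8%, 26.5% and 38.8%, so with CMC the ages overlapped. Entries 4-1 and 5-1 were much lower. In 4-1 the rise was 12.4 ± 5.7 points in young cells, which was called, and 7.6 ± 3.4 points in old cells, which was under 10 points. In 5-1 it was 10.2 ± 4.7 and 5.3 ± 2.1 points, and the young call ended without young replicate 1 or without young replicate 3, when the mean rise fell under 10 points. It also ended with 1 subtracted from every coverage and stop count. The lower rates of these entries stand beside their shared coverage. Entry 5-1 held 50 stop reads at position 35 over the 12 libraries against 750 in 2-1, while its coverage of 12504 reads at that base was close to its 12618 reads at position 30, where the entries share their reads. Coverage at position 35 was 13245 reads in 1-1 and 13754 in 2-1, against 12796 and 12827 at position 30. The rates of 1-1, 2-1 and 3-1 at position 35, with and without CMC, are thus also not levels of single entries.

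**Figure D3:**
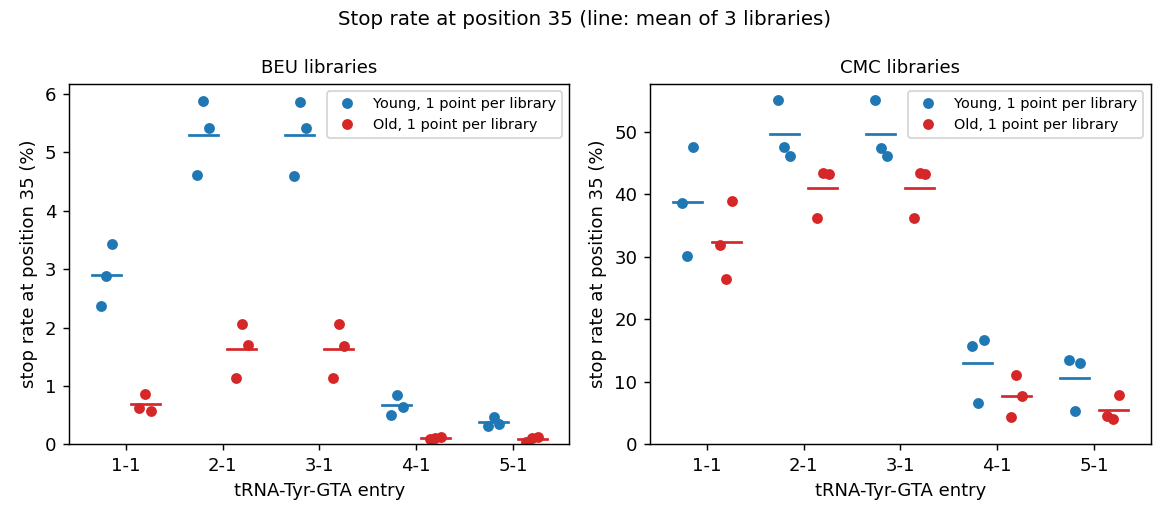
Stop rate at position 35 (percent) in BEU libraries (left) and CMC libraries (right) for the 5 entries, 1 point per library, with lines at the means of 3 libraries; the vertical axes differ. In the left panel every young point lies above every old point of the same entry, and in the right panel the ages are apart in 2-1 and 3-1 and overlap in 1-1, 4-1 and 5-1.

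A T at position 35 also occurs in tRNAs for asparagine, aspartate, glutamine, glutamate, histidine and lysine, and 23 of these were tested. In young cells none of the 23 was called (0.0%, with 7 at an unadjusted p under 0.05 in edgeR), and their rises had a median of 1.03 points and a highest value of 6.73 points. In old cells 1 of 23 was called (4.35%), tRNA-Glu-TTC-3-1, with the highest rise of 11.97 points, against a median of 2.26 points. Entries 1-1, 2-1 and 3-1 each lay above all 23 at both ages. These are descriptions with no test between tRNAs.

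**Figure D4:**
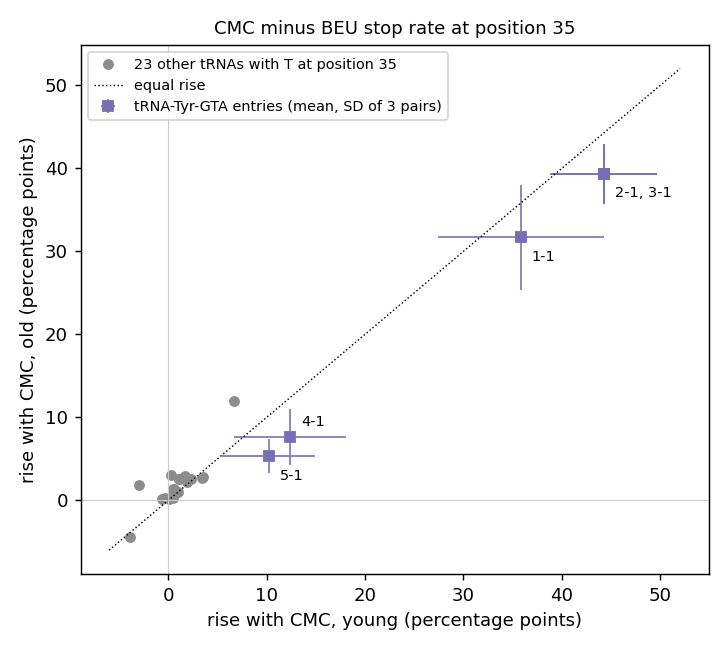
Rise with CMC at position 35 (CMC minus BEU stop rate, percentage points) in old against young cells, for the 5 tRNA-Tyr-GTA entries (squares, mean and SD of 3 pairs) and for 23 other tRNAs with T at this position (circles, means); the dotted line marks equal rises. Entries 1-1, 2-1 and 3-1 lie at 31.7 to 44.3 points, beyond the highest of the circles (6.73 points young, 11.97 points old).

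In the libraries without CMC, position 35 had a lower stop rate in old cells in 1-1, 2-1 and 3-1, and in 4-1 and 5-1 as deposited. The BEU stop rate of 2-1 was 5.31% ± 0.65 in young cells and 1.63% ± 0.47 in old cells, a difference (old minus young) of -3.68 ± 0.46 points (SE). In 1-1 it was 2.89% ± 0.53 against 0.683% ± 0.158, in 4-1 0.664% ± 0.172 against 0.10% ± 0.017, and in 5-1 0.378% ± 0.085 against 0.086% ± 0.039. In all 5 entries as deposited the 3 old libraries lay below the 3 young ones. With CMC the difference of 2-1 was -8.66 ± 3.65 points, with no overlap and an unadjusted p of 0.11. The old rates of 4-1 and 5-1 mostly restate the lowest deposited value: replicates 2 and 3 held 1 stop read each in both entries and replicate 1 held 4 and 2, so these old means and SDs are not measured levels. The young BEU libraries held 5 to 19 stop reads.

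The test of BEU stops between the ages took bases with a mean BEU rate of at least 5%, which position 35 misses. With a minimum of 1%, chosen after the data were seen, edgeR called 0 of 4799 bases (0.0%, with 245 at an unadjusted p under 0.05), with an adjusted p of 0.132 at position 35 of 2-1. At bases whose coverage stayed under 7500 reads at and 5′ of them in all 12 libraries, it called 85 of 2999 (2.83%), of which 77 were lower in old cells (2.57%). Position 35 of 1-1, 2-1 and 3-1 was among the 77, with adjusted p of 9.5e-06, 4.7e-06 and 4.7e-06. These 3 calls stayed when each replicate of either age was left out in turn. DESeq2 called the same 3 entries among its 13 of 2999 (adjusted p = 0.00107, 0.000222 and 0.000222), and limma called none of the 2999 (105 at an unadjusted p under 0.05; adjusted p = 0.176 at these 3).

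A second denominator gave the same order of the ages. Per 100 stop reads at G46 of 2-1, a base 11 positions further 3′ that stops reads without CMC, position 35 had 13.2, 12.7 and 15.7 stop reads in the young BEU libraries and 5.32, 5.98 and 4.48 in the old ones. In the CMC libraries the means were 63.2 ± 5.1 in young and 49.3 ± 14.1 in old cells. The ages were apart without CMC and overlapped with CMC.

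The age difference in the CMC-dependent stop, tested as the interaction of age and CMC in log odds, was not called at position 35 over all sites. It was +1.30 (log2 odds ratio, old minus young) in 2-1 and +1.78 in 1-1, with unadjusted p of 0.00897 and 0.00387 and an adjusted p of 0.909 for both. The sign is opposite to that of the rise in points, which was lower in old cells by 4.98 ± 3.77 points (SE) in 2-1 and by 4.15 ± 6.09 points in 1-1, since the odds of a BEU stop were lower in old cells. At the sites under the coverage limit, edgeR called 3 of 215 (1.4%), and these 3 were position 35 of 1-1, 2-1 and 3-1, with adjusted p of 0.00512, 0.0306 and 0.0306. DESeq2 and limma called 0 of these 215, with 7 and 13 at an unadjusted p under 0.05. Without young replicate 2 or old replicate 3 the edgeR count among the entries was 0, without young replicate 3 or old replicate 1 it was 1, and without young replicate 1 or old replicate 2 it was 3. The CMC stop rate alone gave adjusted p of 0.978, 0.616 and 0.616 at these sites.

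Position 39, the last pair of the anticodon stem, was called in 1-1, 2-1 and 3-1 at both ages. In 2-1 the BEU libraries had 0.948%, 0.913% and 0.735% in young and 0.352%, 0.718% and 0.647% in old cells. The CMC libraries had 24.8%, 20.0% and 23.5% in young and 31.7%, 23.0% and 22.4% in old cells. Treatments were far apart, and the ages overlapped with CMC. The rise was 21.9 ± 2.5 points in young (adjusted p = 2.93e-07) and 25.1 ± 5.4 points in old cells (adjusted p = 1.19e-07). In 4-1 it was 6.6 ± 2.8 and 4.6 ± 2.6 points and in 5-1 3.7 ± 2.0 and 4.3 ± 3.1 points, under the 10 points needed. Over the 12 libraries 4-1 held 32 and 5-1 held 18 stop reads at this base, against 309 in 2-1. The lowest deposited value is 1 per library, so 5-1 lay near that floor. Coverage of 4-1 and 5-1 was 12494 and 12388 reads here, close to their 12679 and 12618 at position 30, where the entries share their reads. The rise was common at this position: 80.9% of 68 other tRNAs with T39 were called in young and 82.4% in old cells, and 39 and 32 of the 68 had a larger mean rise than 2-1.

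In the T loop, position 55 was called at both ages in the 4 entries with enough coverage, and position 54 in none. In 2-1, position 55 had 1.94%, 2.41% and 1.67% in young BEU, 39%, 32.1% and 35.1% in young CMC, 0.20%, 1.56% and 1.89% in old BEU, and 37.6%, 37.7% and 34.3% in old CMC libraries. The old BEU library at 0.20% is replicate 1, which lay at the coverage limit there. The rise was 33.4 ± 3.7 points in young (adjusted p = 0.000161) and 35.3 ± 2.6 points in old cells (adjusted p = 3.69e-05), a difference of 1.91 ± 2.60 points (SE). In 1-1 it was 38.8 ± 3.4 and 36.5 ± 2.9 points, and in 4-1 19.2 ± 3.8 and 15.4 ± 6.0 points. Entry 5-1 had 1 stop read at position 55 in each library, the lowest deposited value, and was not tested. Of 158 other tRNAs with T55, 78.5% were called in young and 83.5% in old cells.

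At position 54 of 2-1 the CMC libraries had 5.61%, 4.22% and 4.2% in young and 4.64%, 4.71% and 6.29% in old cells, against BEU rates of 2.19%, 2.75% and 1.59% and of 0.175%, 1.31% and 1.52%. Rises averaged 2.5 ± 1.0 points in young and 4.2 ± 0.7 points in old cells, and the largest over the 4 tested entries was 6.5 ± 5.1 points in young cells of 4-1. None of the 4 entries was called at either age, as every mean rise was under the minimum for a call. In edgeR, 2 in young and 4 in old cells had an unadjusted p under 0.05. The adjusted p of edgeR ranged from 0.00059 to 0.20 in young cells and from 8.7e-05 to 0.0063 in old cells. All 4 entries thus passed the adjusted p threshold in old cells. Of 143 other tRNAs with T54, 25.9% were called in young and 30.1% in old cells. The age difference of the rise in 2-1 was 1.71 ± 0.70 points (SE), and its rise was too small at this position for the interaction test. The old BEU replicate 1 again lay at the coverage limit.

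**Figure D5:**
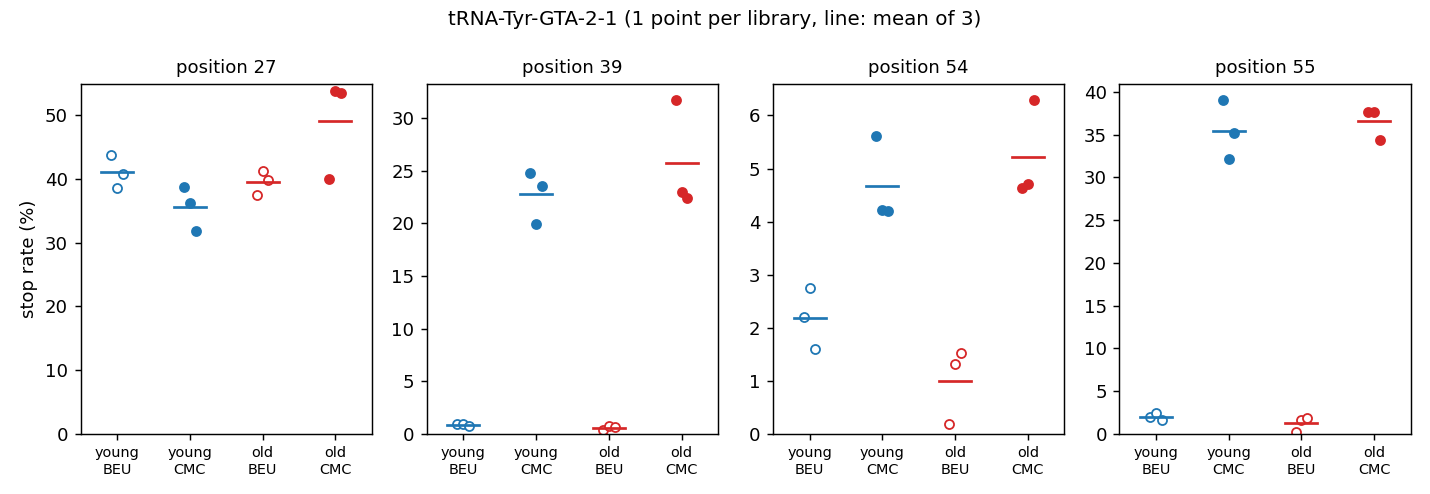
Stop rate (percent) at positions 27, 39, 54 and 55 of tRNA-Tyr-GTA-2-1 in the 4 groups, 1 point per library, with lines at the means of 3 libraries; each panel has its own vertical axis. Positions 39 and 55 separate CMC from BEU at both ages, position 54 stays under 7% in all libraries, and position 27 is at 31.8% to 53.8% in all 12.

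The variable base 59 and its neighbour 60 were called in 4-1 and 5-1 and in no other entry. G59 of 5-1 had 11.6%, 19.2% and 8.32% in young BEU, 72.8%, 58.2% and 68.9% in young CMC, 5.22%, 12% and 11.3% in old BEU and 65.5%, 69.5% and 74.4% in old CMC libraries. The rise was 53.6 ± 12.6 points in young (adjusted p = 0.00174) and 60.3 ± 2.8 points in old cells (adjusted p = 0.000371). C59 of 4-1 rose by 30.5 ± 11.2 and 40.9 ± 3.1 points (adjusted p = 0.00951 and 0.00115). T60 rose by 31 ± 10 and 30.8 ± 3.3 points in 5-1 and by 21.5 ± 10.1 and 23.7 ± 3.0 points in 4-1. Neither A59 of 1-1, with rises of 4.5 ± 2.8 and 6.9 ± 1.6 points, nor T59 of 2-1, with 3.0 ± 2.4 and 4.1 ± 1.1 points, was called. The 4-1 and 5-1 entries held the same 1607 stop reads at position 59 and 1723 at position 60, so these rates differ through coverage. Entries 1-1 and 2-1 held nearly as many, 1487 and 1356 at position 59 and 1534 and 1291 at position 60. Their coverage at position 59 was 30654 and 41631 reads, against 13949 in 4-1 and 12213 in 5-1. The 5 sequences are the same 3′ of position 59, so stops at position 60 cannot be assigned to single entries. At position 59 the near-equal stop reads likewise do not show stops particular to 4-1 or 5-1. Whether any belong to a single entry was not tested. Without young replicate 1 the young calls at C59 of 4-1, G59 of 5-1 and T60 of 4-1 were lost (adjusted p = 0.178, 0.0679 and 0.0506), and without young replicate 3 those at C59 and T60 of 4-1 (adjusted p = 0.126 and 0.0622).

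The remaining calls were single. In 4-1, G46 rose by 12.2 ± 7.0 points and T47 by 12.3 ± 7.7 points in young cells (adjusted p = 0.0146 and 0.000251), with CMC coverage of 24 to 243 reads. The G46 call was lost without young replicate 1 or 3 (adjusted p = 0.248 and 0.141), and the T47 call without young replicate 3, when its mean rise was under 10 points. In 1-1, T43 rose by 10.4 ± 1.6 points in old cells (adjusted p = 0.00394) and had 3.5 ± 5.1 points in young cells. That call was lost without old replicate 2, when the mean rise was under 10 points. With 1 subtracted from coverage and stop reads, the calls at T43 of 1-1 and at G46 of 4-1 (adjusted p = 0.0598) were lost as well.

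Several positions stopped reads without CMC. G46 of 2-1 had mean BEU stop rates of 22.9% in young and 19.6% in old cells and CMC rates of 27.4% and 28.1%, with rises of 4.5 ± 4.0 and 8.5 ± 5.9 points that were not called. T47 had BEU rates of 13.3% and 13.7% and CMC rates of 20.2% and 20.1%. The strongest stop in the stretch held for 3-1 was T20 in the D loop, a known place of modified uridines. It stopped 90.4%, 89.2% and 89.9% of the covering reads in young BEU, 91.7%, 92.9% and 92.3% in old BEU, 78.6%, 79.3% and 77.8% in young CMC and 81.2%, 84.6% and 77.3% in old CMC libraries, the last 6 on 13 to 92 reads. Every library was high, and in the BEU libraries the coverage of 3-1 fell from between 365 and 1970 reads at T20 to between 28 and 132 reads at position 19. Too few CMC reads remained to test it. Entries 3-1 and 4-1 are the only ones among the 5 whose rows reach T20.

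G27, at the foot of the anticodon stem, had stop rates of 38.3% to 44.3% in young BEU and 37.4% to 41.5% in old BEU libraries over the 5 entries, which share these reads. In 124 other tRNAs tested at position 27 the BEU rates had medians of 1.84% (young) and 1.61% (old), and none exceeded 30% in young cells. With CMC, 2-1 had 38.7%, 36.2% and 31.8% in young and 40%, 53.8% and 53.4% in old cells, on 22 to 188 reads. The rise was negative in all 3 young pairs (-5.5 ± 3.3 points) and positive in all 3 old pairs (9.6 ± 6.1 points). The CMC rate was 13.5 ± 5.0 points (SE) higher in old cells, with no overlap, an unadjusted p of 0.0175 and an adjusted p above 0.99, so it was not called.

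Over all sites tested, without the restriction to sites under the coverage limit, edgeR called no age difference among the members. For the CMC-dependent stop, 0 of 13 member sites were called (0.0% of 439 T sites), 3 at an unadjusted p under 0.05, and 22 of the 439 overall; DESeq2 and limma also called 0. The mean rise was lower in old cells at 7 of 13 member sites, where 33.9% of the 439 were lower, with a median difference of -0.21 points against 1.39 points over all. In log odds, the scale of the test, it was lower in old cells at 2 of the 13. For BEU stops 0 of 23 member bases were called (0.0% of 1190), none at an unadjusted p under 0.05, and 69 of the 1190 overall; DESeq2 called 30 of the 1190 and none of the members, and limma called 0. The mean BEU rate was lower in old cells at 20 of 23 bases, against 62.9% of the 1190, and the median difference was -1.73 points against -0.63 points. Some of the 23 bases lay at the coverage limit, where few stop reads were recorded in the deepest libraries. At sites under the limit, 14 of 15 member bases were lower in old cells in log odds. Of the 15, edgeR called 0, against 50 of 893 (5.6%) over all tRNAs. For CMC stops 0 of 83 member bases were called (0.0% of 2385), 8 at an unadjusted p under 0.05, and 94 of the 2385 overall. DESeq2 and limma called 0. The mean CMC rate was lower in old cells at 40 of 83 bases, against 38.4% of the 2385. The libraries of the ages did not overlap at 0 of 13 (13.0% overall), 2 of 23 (21.2% overall) and 14 of 83 sites (14.0% overall). The members of each count share reads and are not independent.

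The amount of tRNA-Tyr-GTA was compared through the highest coverage of each entry in the BEU libraries, in counts per 1e6 (CPM). Entry 2-1 had 6626, 6808 and 6458 in young and 6466, 6952 and 6928 in old libraries, overlapping ranges, with a log2 fold change (old over young) of 0.03 ± 0.04 (SE over the libraries' log2 values). Entry 1-1 had 4251, 4241 and 5240 in young and 6439, 4775 and 4814 in old libraries, a log2 fold change of 0.22 ± 0.17. In 4-1 and 5-1 the log2 fold changes were 0.35 ± 0.28 and 0.44 ± 0.30, with old replicate 1 the highest library in both. Without old replicate 1 the log2 fold changes were 0.066 in 1-1, 0.060 in 4-1 and 0.13 in 5-1. No entry passed edgeR's test (adjusted p = 0.681 to 0.975; 0 of 213 tRNAs, 0.0%, and 12 of 213 at an unadjusted p under 0.05), and DESeq2 size factors called 1 of the 213 and no tRNA-Tyr entry. With total coverage as library size the log2 fold change of 2-1 was -0.19, so its direction is not settled. In bulk RNA, fewer molecules per cell and fewer cells cannot be told apart, and the coverage limit holds down the deepest libraries of 1-1, 2-1 and 3-1. The entries also share reads, so the highest coverage is not the amount of a single entry. Summed over the 12 libraries, 5-1 had 12618 reads at position 30 and 14150 at position 61, and 2-1 had 12827 and 43838.

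Among 119 tRNAs of other anticodons with at least 40 shared tested positions, the profile of mean rises most like that of 2-1 belonged to tRNA-Leu-CAA-2-1 (Pearson r = 0.73 over 40 positions). It was followed by tRNA-Glu-TTC-3-1 (r = 0.72 over 45 positions) and tRNA-Ser-AGA-1-1 (r = 0.69 over 45 positions). The points are positions of 2 tRNAs in the same 12 libraries. The mean rise over the 6 pairs at position 55 was 34.4 points in 2-1, 54.4 in tRNA-Leu-CAA-2-1, 35.6 in tRNA-Glu-TTC-3-1 and 62.3 in tRNA-Ser-AGA-1-1. At position 35 the mean rise of 2-1 was 41.8 points, against 9.35 points in tRNA-Glu-TTC-3-1 and 4.19 points in tRNA-Ser-AGA-1-1, where the base is G and not T. For tRNA-Leu-CAA-2-1 there was no value at position 35, so its correlation leaves out the position where 2-1 rose most.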

How the data were processed

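The authors deposited 6 tables, 1 per age and replicate number, each with a BEU and a CMC library. Per the file headers, coverage and stop reads are counts per base, and the deposited stop rate is a percent equal to 100 times stop reads over coverage. Bowtie2 2.3.5, Bowtie and mm10 appear in the submitters' processing notes, with no roles, and no source used here gives the rule for counting a stop. The lowest deposited count is 1. Genome coordinates were not used here.

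Entries with identical values were taken once. Pairs of stop and read-through counts at sites with coverage of at least 20 in all 12 libraries were fitted with edgeR 4.0.16 (R 4.3.3): a coefficient per library, log odds per group, equal library sizes, no dispersion trend. P-values were adjusted by Benjamini-Hochberg over all tRNAs, for T and for the other bases apart. The interaction was tested at T with a mean rise over 6 pairs of at least 10 points, and BEU and CMC stops between ages at mean rates of at least 5%. Abundance used TMM and filterByExpr. The alternatives were DESeq2 1.42.0, on the same pairs of counts, and limma 3.58.1, on log2 odds with 0.5 added. The named positions were T35, T54, T55, 27, 59, 60 and any called or tested between ages, in all 5 entries, with the 3 most similar other tRNAs; T20, G34, A36 and G46 as denominator were added after their values were seen. Members, positions and lists were chosen with earlier results of these data known. The test was run on simulated counts at sites under the coverage limit only, so the fit over all sites was not checked in this way. The noise model of the simulation was replaced after the first version recovered no change. Errors are SDs over 3 libraries or pairs. Same-numbered libraries did not deviate together (2 of 12 correlations over 0.1, range -0.52 to 0.39), so numbers were not used as pairs in the fits. Reads carry no molecular identifiers and precision covers these libraries only.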

Additional observations from a re-analysis of the deposited data

Results flagged for a closer look

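At position 27, every young pair of libraries had a lower stop rate with CMC than with BEU and every old pair a higher one. The mean rise was higher in old than in young cells by 16.1 points in tRNA-Tyr-GTA-1-1, 15.1 in 2-1, 16.2 in 3-1, 17.1 in 4-1 and 15.7 in 5-1. This difference between the ages was not tested, because the interaction test covered T sites only. The 5 entries share these reads and count as a single measurement, and the CMC libraries had 22 to 188 reads over the base.

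At position 35, edgeR's interaction test called an age difference in the CMC-dependent stop at sites under the coverage limit, with a log2 odds ratio (old minus young) of 2.07 in 1-1, 1.41 in 2-1 and 1.41 in 3-1. The call was not made over all sites (adjusted p = 0.909), with DESeq2 (0.462 in 1-1, 0.73 in 2-1 and 3-1) or with limma (0.719), nor in any entry without young replicate 2 or without old replicate 3. Entries 2-1 and 3-1 hold the same stop reads there. The difference in the rise itself, in percentage points, had the opposite sign and was smaller than 1.5 times its SE in both 1-1 and 2-1.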

How the results depend on the processing

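The count of T sites called among the entries fell to 7 in young and 7 in old cells with a coverage minimum of 50. Fewer sites were tested there, and position 35 was left out in all 5 entries. With 1 subtracted from coverage and stop reads it was 14 and 12. With reads summed per anticodon it was 3 and 3, which counts positions of 1 summed tRNA. Leaving out each replicate gave 12 to 15 T calls in young and 12 to 13 in old cells, and 0 to 4 (young) and 2 to 4 (old) A, C and G calls. The interaction had 3 member calls below the coverage limit, with a range of 0 to 3 when each replicate was also left out. BEU stops with a minimum of 1% below the limit had 3 member calls, 3 with DESeq2, 0 with limma and 3 to 3 over the left-out replicates. Over all sites with the same minimum, edgeR made 0 member calls (0 of 4799 bases of all tRNAs).

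A replicate block (the replicate number as a term) changed no count of member calls by over 1.5 times and left the interaction at 0 calls of 13. A replicate block within each age, added after seeing the data, left 1 call at A, C and G in young cells, as G46 and C59 of 4-1 missed the threshold (adjusted p = 0.0933 and 0.089).

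The interaction (log2 odds ratio, old minus young) changed sign at uncalled sites only. With limma it was -0.000611 at T47 of 4-1. Over the left-out replicates it ranged from -0.26 to 0.41 at T47, from -1.12 to 0.11 at T55 and from -0.13 to 0.82 at T60 of 4-1, from -0.23 to 0.66 at T60 of 5-1, and from -0.48 to 0.14 at T55 and from -0.076 to 1.00 at T39 of 1-1. The log2 abundance change of 2-1 and 3-1 was -0.19 with total library size and -0.055 with identical entries kept apart. The causes were not tested.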
